A study of Arabidopsis thaliana with 15 samples.

Results

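The genes described here are the 7 morning genes of the Arabidopsis circadian clock, CCA1 (AT2G46830), LHY (AT1G01060), PRR9 (AT2G46790), PRR7 (AT5G02810), RVE1 (AT5G17300), RVE4 (AT5G02840) and RVE8 (AT3G09600). They were picked by name out of the 32833 genes of a count table, not by a measured value, but with earlier results of these data known. All 7 were among the 19404 genes with enough reads to be tested. The plants were 6-week-old Arabidopsis thaliana Col-0, grown from sterilised seed in closed boxes on ground zeolite under 11 h of light and 13 h of dark. They had been sprayed with Williamsia sp. Leaf354, a bacterium from leaves, or with buffer, and poly-A RNA was sequenced from the aboveground parts 96 h later. The mock group received phosphate-buffered saline (PBS), and the groups W5, W6, W7 and W8 received 100000, 1000000, 10000000 and 100000000 CFU (colony-forming units) per ml. Each of the 5 groups held 3 libraries, and every library combined 2 plants from separate boxes. The hour of the day at harvest is not given in the sources used here. A difference in that hour between the groups could not be told apart from a difference in density.

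In the plant clock, CCA1 and LHY are closely related MYB transcription factors whose transcripts peak around dawn and which repress genes of the evening, TOC1 among them. PRR9 and PRR7 are pseudo-response regulators that are made later in the morning and through the day and that repress CCA1 and LHY in turn. RVE4 and RVE8 are MYB-like relatives of CCA1 that peak in the morning but activate evening genes together with the LNK proteins, and RVE1 is another relative that acts mainly on clock outputs such as auxin synthesis and seed dormancy.

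The library totals ranged from 17811560 to 21870246 counts. In a principal component analysis of log2 CPM (counts scaled to a library total of 1000000), mock replicate 3 lay at 19.4 on the first component, which held 49.7% of the variance, against -42.4 and -39.8 for the other mock libraries. W8 replicate 2 lay at 75.5 against 51.8 and 49.1 for the other W8 libraries. Changes of the 7 genes in W8 against mock are therefore given with and without these 2 libraries. The tissue label was checked with markers. The 4 leaf markers (RBCS1A, LHCB1.1, CA1 and RCA) summed to 24047–30782 CPM in mock and to 17948–20148 in W8, with all 4 lower in W8 at adjusted p under 0.05. Only 89.5% of the CA1 exon bases belong to no other annotated gene. The 4 root markers summed to 0.0459–0.476 CPM over all libraries, with RHD6 and EXPA7 at 0 counts throughout. The 5 flower markers (AP1, AP3, PI, AG and LFY) summed to 1.51–3.88 CPM, mostly from AG, with AP1 and LFY at no more than 2 counts in any library. The part of the leaf marker shift in the results on the clock genes was not tested.

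The stretches upstream of 4 of the genes are shown as examples, and a link between sequence and change was not tested. CCA1 and PRR9 fell with bacterial density, PRR7 did not pass the test, and RVE4 is the single member without a G-box. Each line gives the 250 bases before the annotated gene start, 5′ to 3′ on the strand of the gene, from the RefSeq TAIR10.1 assembly. The G-box CACGTG, a hexamer bound by bHLH and bZIP light-signalling factors, is in capitals. The CCA1 stretch is chr2:19245341-19245590 (+), the PRR9 stretch chr2:19232357-19232606 (+), the PRR7 stretch chr5:642031-642280 (-) and the RVE4 stretch chr5:648398-648647 (+).
CCA1: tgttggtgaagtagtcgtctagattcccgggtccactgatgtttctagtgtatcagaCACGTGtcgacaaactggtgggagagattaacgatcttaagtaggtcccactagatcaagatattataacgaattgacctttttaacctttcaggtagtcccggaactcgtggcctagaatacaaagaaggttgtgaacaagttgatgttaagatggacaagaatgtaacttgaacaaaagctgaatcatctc
PRR9: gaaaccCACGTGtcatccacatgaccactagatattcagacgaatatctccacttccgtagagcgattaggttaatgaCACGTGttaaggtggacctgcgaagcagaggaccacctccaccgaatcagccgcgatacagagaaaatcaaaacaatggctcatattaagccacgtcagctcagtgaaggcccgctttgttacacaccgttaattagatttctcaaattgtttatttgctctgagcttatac
PRR7: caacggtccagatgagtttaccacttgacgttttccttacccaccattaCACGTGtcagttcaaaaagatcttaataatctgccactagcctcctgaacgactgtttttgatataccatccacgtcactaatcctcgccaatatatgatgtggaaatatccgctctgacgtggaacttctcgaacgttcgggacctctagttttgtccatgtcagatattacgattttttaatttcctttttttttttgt
RVE4: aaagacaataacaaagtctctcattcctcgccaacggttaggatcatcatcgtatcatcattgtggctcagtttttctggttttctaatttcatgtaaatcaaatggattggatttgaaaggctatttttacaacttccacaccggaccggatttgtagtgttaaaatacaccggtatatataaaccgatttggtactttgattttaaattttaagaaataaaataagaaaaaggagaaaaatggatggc

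A window from 250 bases before to 50 bases after the start was searched for each gene on both strands. A G-box was present in 6 of the 7 windows, in all but that of RVE4, against 7.68% of the 27443 annotated promoters. Its first base lay at -193 in CCA1, -80 in LHY, -244 and -172 in PRR9, -201 in PRR7, -111 in RVE1 and +12 in RVE8. The 8-base form CACGTGTC, which contains the G-box and was searched for after the windows had been read, was present in 5 of the 7, those of CCA1, LHY, PRR9, PRR7 and RVE1, against 2.45%. The evening element AAAATATCT, to which CCA1 and the RVE proteins bind, was found once, in PRR9 at +27 on the minus strand, against 2.82% of promoters. The CCA1-binding site AAAAATCT was in none of the 7 windows and in 7.88% of promoters. The G-box was present upstream of PRR7 and RVE1 as well as upstream of CCA1, LHY and PRR9. The edgeR fits behind the values given here called PRR7 and RVE1 in no comparison, although some alternative fits did. Whether the G-box bears on any of these changes was not tested.

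**Figure D1:**
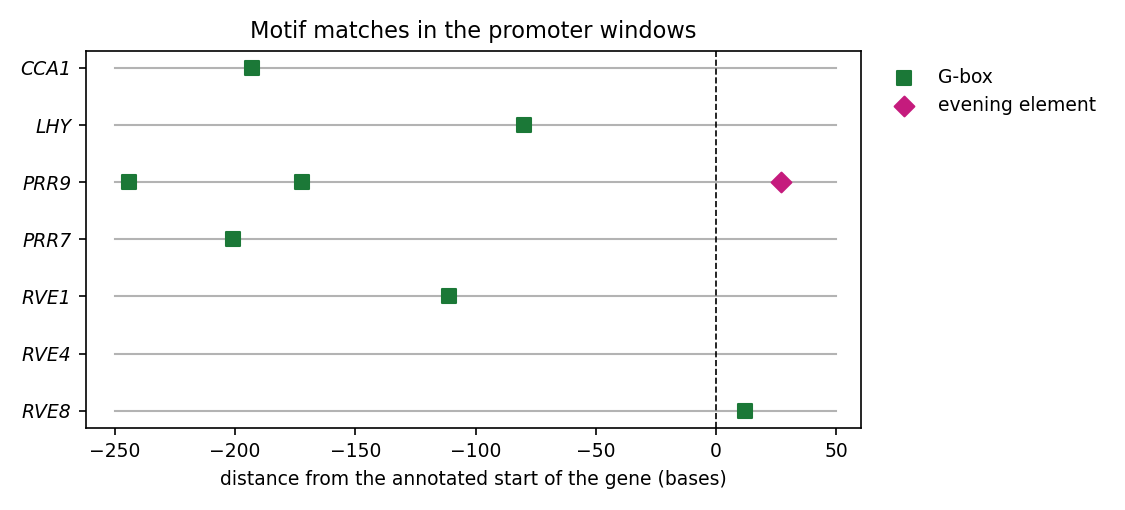
Position of each motif match in the 7 promoter windows. The x axis is the distance from the annotated gene start in bases, the grey lines are the windows searched, squares are G-boxes and the diamond is an evening element. A G-box lies in every window but that of RVE4, and PRR9 alone of the 7 holds more than 1.

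Some of the genes lie close together. In TAIR10.1, PRR9 (chr2:19232607-19235179) and CCA1 (chr2:19245591-19248915) are separated by 10411 bases, both on the plus strand. PRR7 (chr5:637681-642030, minus strand) and RVE4 (chr5:648648-651979, plus strand) are 6617 bases apart. LHY is at chr1:33365-37871 (-), RVE1 at chr5:5690225-5692992 (-) and RVE8 at chr3:2946239-2949017 (+). The neighbours PRR9 and CCA1 both fell with density, while of the other pair RVE4 passed the test in W8 and PRR7 did not.

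At the highest density, CCA1, PRR9 and LHY were each more than 2-fold lower than in mock, RVE8 and RVE4 were lower by less, and PRR7 and RVE1 did not pass the test. Per kilobase of exon in mock plants, PRR7 had the highest level at 89.2 ± 2.7 CPM per kb (SD, n = 3). RVE4 at 28.4 ± 0.567, CCA1 at 26.4 ± 2.83 and PRR9 at 22.6 ± 3.68 followed, with overlapping ranges for CCA1 and its neighbours on either side. RVE8 at 4.36 ± 0.181, LHY at 2.08 ± 0.725 and RVE1 at 1.69 ± 0.299 were low, and the last 2 overlapped. In W8 the level per kilobase was 85 ± 3.73 for PRR7, 24 ± 2.56 for RVE4, 9.58 ± 0.62 for CCA1 and 8.97 ± 0.0864 for PRR9. The gap between RVE4 and CCA1, small in mock, was thus wider in W8 than the spread of either gene. RVE8 at 3.16 ± 0.103, RVE1 at 1.82 ± 0.716 and LHY at 0.919 ± 0.262 were again lowest.

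**Figure D2:**
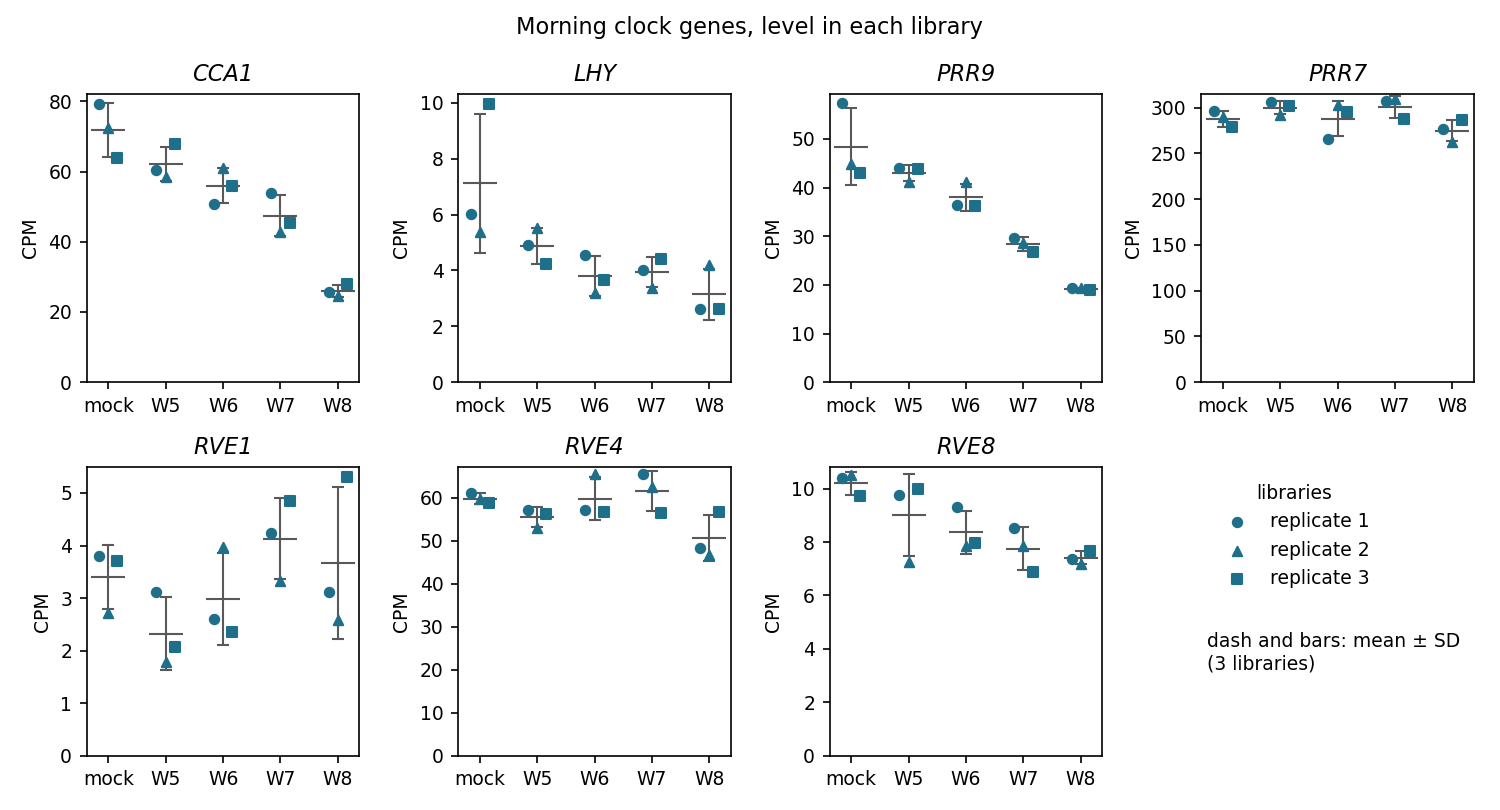
Level of each gene in CPM (y axis, linear, from 0) in the 15 libraries by group. Symbols are replicates 1 to 3, and the dash with bars is the mean ± SD of 3 libraries. CCA1 and PRR9 step down from mock to W8, whereas PRR7 stays between 262 and 309 CPM in every library.

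CCA1, the dawn repressor, measured 79.2, 72.3 and 63.8 CPM in mock replicates 1 to 3. It measured 60.4, 58.5 and 67.8 in W5 and 50.9, 61.1 and 56 in W6. It measured 53.9, 42.7 and 45.4 in W7 and 25.8, 24.5 and 27.9 in W8. The highest W8 library was below the lowest library of every other group, and the W7 libraries were all below the mock libraries. In edgeR's quasi-likelihood test the log2 change against mock was -0.60 ± 0.096 (SE) in W7, with adjusted p = 0.000516. In W8 it was -1.46 ± 0.1 with adjusted p = 1.04e-08, which leaves 36.3% of the mock level. Without mock replicate 3 and W8 replicate 2 the W8 change was -1.50 with adjusted p = 6.69e-09. In whole shoots, fewer cells of a type and less RNA per cell cannot be told apart.

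LHY, the partner of CCA1, was read from far fewer molecules, at 48 to 218 counts per library. It measured 6.03, 5.36 and 9.95 CPM in mock, 4.91, 5.51 and 4.23 in W5 and 4.57, 3.18 and 3.67 in W6. It measured 4.03, 3.36 and 4.42 in W7 and 2.62, 4.18 and 2.63 in W8. Mock replicate 3 was the highest of the 15 libraries for LHY, while it was the lowest mock library for CCA1 and PRR9. The W6, W7 and W8 libraries all lay below the mock libraries but overlapped with each other. The log2 change was -0.86 ± 0.23 in W7 with adjusted p = 0.0193 by edgeR, and it was -1.18 ± 0.24 in W8 with adjusted p = 0.000674. Leaving out mock replicate 3 and W8 replicate 2 gave -1.12 in W8, with adjusted p = 0.000413, and a smaller change of -0.53 in W7, with adjusted p = 0.0484. The W7 call was lost without mock replicate 3, without W7 replicate 2 and when mock and W7 alone were fitted, with adjusted p from 0.00792 to 0.108 over the alternatives.

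PRR9, the first of the pseudo-response regulators to be expressed in the day, measured 57.4, 44.9 and 42.9 CPM in mock. It measured 44, 41.2 and 43.8 in W5 and 36.4, 41.2 and 36.3 in W6. It measured 29.7, 28.5 and 26.8 in W7 and 19.3, 19.3 and 19 in W8. The W7 libraries lay below all those of mock, W5 and W6, and the W8 libraries lay below all the others. The log2 change against mock was -0.77 ± 0.09 in W7 (adjusted p = 1.12e-05 by edgeR) and -1.33 ± 0.092 in W8 (adjusted p = 5.63e-09). Without the 2 libraries that stood apart, the W8 change was -1.42 with adjusted p = 1.32e-09. PRR9 was the single gene of the 7 that was also called lower between W6 and W7, by 0.42 on the log2 scale with adjusted p = 0.0226. That call was lost without W6 replicate 1, W6 replicate 3, W7 replicate 2 or W7 replicate 3.

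PRR7, the related repressor that is expressed through the day, measured 296, 290 and 279 CPM in mock and 306, 292 and 302 in W5. It measured 266, 303 and 295 in W6, 307, 309 and 288 in W7 and 277, 262 and 286 in W8. The W8 libraries overlapped those of mock and W6 but lay below all those of W5 and W7. The log2 change in W8 against mock was -0.070 with adjusted p = 0.416 by edgeR and a 95% interval from -0.20 to 0.060. At 5217 to 6812 counts per library, the lower bound of this interval lies well above the changes of CCA1 and PRR9. Without the 2 libraries that stood apart the change was -0.062 with adjusted p = 0.569. Across the 5 groups the test for any difference gave adjusted p = 0.36.

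Among the REVEILLE genes, RVE8, an activator of evening genes, measured 10.4, 10.5 and 9.73 CPM in mock and 9.77, 7.25 and 10 in W5. It measured 9.3, 7.85 and 7.95 in W6, 8.51, 7.86 and 6.89 in W7 and 7.37, 7.18 and 7.66 in W8. All libraries of W6, W7 and W8 lay below those of mock. The log2 change was -0.46 ± 0.13 in W8 with adjusted p = 0.00756, and -0.48 with adjusted p = 0.0241 without the 2 libraries that stood apart. In W7 it was -0.40 with adjusted p = 0.046, a call kept in 9 of 23 alternatives, with adjusted p from 0.0253 to 0.178.

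RVE4, which acts with RVE8, measured 61.1, 59.6 and 58.8 CPM in mock and 57.2, 52.9 and 56.3 in W5. It measured 57.1, 65.6 and 56.6 in W6, 65.6, 62.4 and 56.5 in W7 and 48.4, 46.6 and 56.7 in W8. The W5 and the W8 libraries lay below those of mock, but W8 replicate 3 reached the range of W5, W6 and W7. The log2 change in W8 against mock was -0.24 ± 0.078 with adjusted p = 0.0203 by edgeR. It was -0.20 with adjusted p = 0.093 without the 2 libraries that stood apart, and the call was also lost without mock replicate 1, mock replicate 2, W8 replicate 1 or W8 replicate 2.

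RVE1, the output factor, measured 3.8, 2.71 and 3.7 CPM in mock, 3.11, 1.79 and 2.06 in W5 and 2.61, 3.97 and 2.36 in W6. It measured 4.23, 3.32 and 4.85 in W7 and 3.12, 2.58 and 5.31 in W8. W8 replicate 3 was the highest of all libraries. The W7 libraries all lay above those of W5, while mock and W8 overlapped. The log2 change in W8 against mock was 0.10 with adjusted p = 0.813 and a 95% interval from -0.48 to 0.68, at 39 to 97 counts per library. Without the 2 libraries that stood apart the W8 change was 0.36 with adjusted p = 0.413. Only 88.8% of the exon bases of RVE1 belong to no other annotated gene, so its counts are uncertain.

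By count, edgeR called 0 of the 7 genes in W5 against mock, where 0.0155% of all genes tested were called lower and 0.18% in either direction. CCA1 and LHY had an unadjusted p under 0.05 there, and DESeq2 and limma voom called 0. In W6 against mock edgeR again called 0, with a background of 0.34% lower. There CCA1, LHY, PRR9 and RVE8 had an unadjusted p under 0.05, DESeq2 called CCA1, LHY and PRR9, and limma voom called 0. The W6 libraries of CCA1, LHY, PRR9 and RVE8 lay wholly below mock, which was so for 6.67% of genes tested. In W7 against mock 4 of 7 were called, all lower (CCA1, LHY, PRR9 and RVE8), against 6.77% of genes tested. The libraries of these 4 genes lay wholly below mock, as did those of 15% of genes tested. In W8 against mock 5 of 7 were called, all lower, against 17%. The libraries of all 5 lay wholly below mock, against 22% of genes tested. All of these comparisons share the 3 mock libraries. The median log2 change of the 7 genes was -0.18, -0.29, -0.40 and -0.46 in W5, W6, W7 and W8, while that of all genes tested lay between -0.012 and -0.0029.

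**Figure D3:**
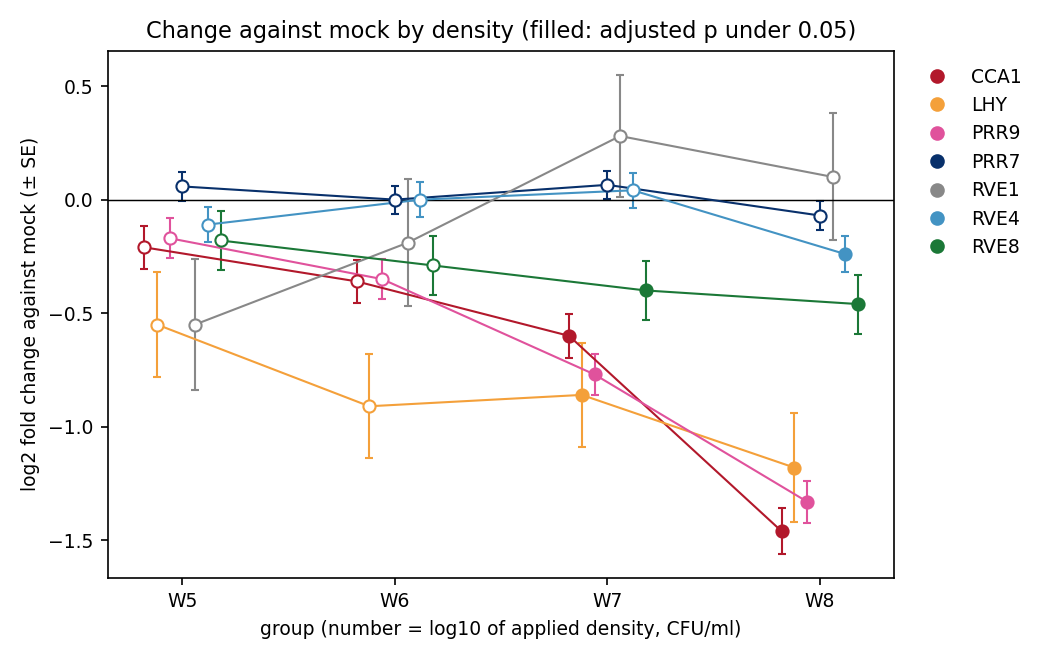
Log2 fold change against mock ± SE (y axis) of the 7 genes in W5 to W8 (x axis, where the number is log10 of the applied density in CFU per ml), with filled symbols where edgeR's adjusted p was under 0.05. CCA1 and PRR9 reach -1.46 and -1.33 in W8, and PRR7 stays between -0.070 and 0.065.

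The comparisons among inoculated groups use no mock library. Between W5 and W6, 0 of the 7 genes were called by edgeR, DESeq2 or limma voom, and 0 had an unadjusted p under 0.05, against 0.0155% of all genes tested called lower. Between W6 and W7 PRR9 alone was called, against 1.03% called lower, and limma voom and DESeq2 also called 1. CCA1 was at -0.24 ± 0.097 there, with an unadjusted p of 0.0226 and adjusted p = 0.179 by edgeR. Between W7 and W8, 3 of 7 were called lower, against 5.32%. These were CCA1 at -0.86 ± 0.1 (adjusted p = 5.52e-05), PRR9 at -0.56 ± 0.094 (adjusted p = 0.000818) and RVE4 at -0.28 ± 0.078 (adjusted p = 0.0227). The RVE4 call between W7 and W8 was kept in 18 of 23 alternatives and had adjusted p = 0.0845 without the 2 libraries that stood apart. Between the lowest and the highest density, W5 and W8, 3 of 7 were called lower, against 15.2%. CCA1 was at -1.26 with adjusted p = 7.57e-08, PRR9 at -1.16 with adjusted p = 4.36e-08 and LHY at -0.63 with adjusted p = 0.0483. The LHY call held in 8 of 23 alternatives. RVE1 was at 0.65 with adjusted p = 0.0869, and without the 2 libraries that stood apart it was called higher, at 0.84 with adjusted p = 0.0347.

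A slope on log10 density was fitted over the 12 inoculated libraries. In all, 3 slopes were called, all negative, against 15.4% of the 19285 genes tested. CCA1 fell by 0.39 ± 0.058 log2 units for each 10-fold rise in density (adjusted p = 0.000244 by edgeR). PRR9 fell by 0.39 ± 0.03 (adjusted p = 7.02e-08). LHY fell by 0.19 ± 0.065 (adjusted p = 0.0336). RVE8 at -0.096 (adjusted p = 0.0791), RVE4 at -0.035 (adjusted p = 0.469), PRR7 at -0.031 (adjusted p = 0.292) and RVE1 at 0.24 (adjusted p = 0.0635) did not pass. The RVE1 slope was called, as a rise, by DESeq2 and without W6 replicate 2, W8 replicate 1 or W8 replicate 2, and it was 0.31 with adjusted p = 0.0144 without the 2 libraries that stood apart. In the test for any difference among the 5 groups, 5 of 7 passed (CCA1, LHY, PRR9, RVE4 and RVE8), against 32.9% of all genes tested. RVE4 and RVE8 were close to the threshold there, at adjusted p = 0.0405 and 0.0421, and without mock replicate 3 and W8 replicate 2 the count was 3.

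Ratios of counts within a library do not depend on how libraries are scaled, and they show how evenly the genes moved. The CCA1 to PRR9 ratio lay between 1.27 and 1.82 in all 15 libraries. It was 1.38–1.61 in mock, 1.37–1.55 in W5, 1.4–1.54 in W6, 1.5–1.82 in W7 and 1.27–1.47 in W8, so mock and W8 overlapped and W7 lay wholly above W8. The CCA1 to PRR7 ratio was 0.229–0.267 in mock, 0.197–0.225 in W5, 0.189–0.202 in W6, 0.138–0.176 in W7 and 0.0933–0.0976 in W8. PRR9 to PRR7 went from 0.154–0.194 in mock to 0.0665–0.0739 in W8. Both ratios to PRR7 were lower in every W7 and W8 library than in any mock, W5 or W6 library. Within the REVEILLE pair, RVE8 to RVE4 was 0.166–0.176 in mock, 0.122–0.13 in W7 and 0.135–0.154 in W8, so W7 lay below both. The CCA1 to LHY ratio spread from 5.87 to 19.2 and overlapped between mock (6.41–13.5) and W8 (5.87–10.6). The ratios are given as a description, with no test.

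Ratios against TOC1, an evening gene, and PRR5, an afternoon gene, moved further. CCA1 to TOC1, the classic morning and evening pair, was 2.1–3.99 in mock, 2.04–2.5 in W5, 1.92–2.34 in W6, 1.3–1.72 in W7 and 0.466–0.582 in W8. CCA1 counts thus exceeded TOC1 counts in every library but those of W8, where the order was the other way round. PRR9 to PRR5, an early and a later pseudo-response regulator, was 1.04–1.99 in mock, 0.986–1.34 in W5, 0.741–0.952 in W6, 0.456–0.673 in W7 and 0.251–0.331 in W8. In mock, replicate 1 had the highest and replicate 3 the lowest ratio in both pairs.

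**Figure D4:**
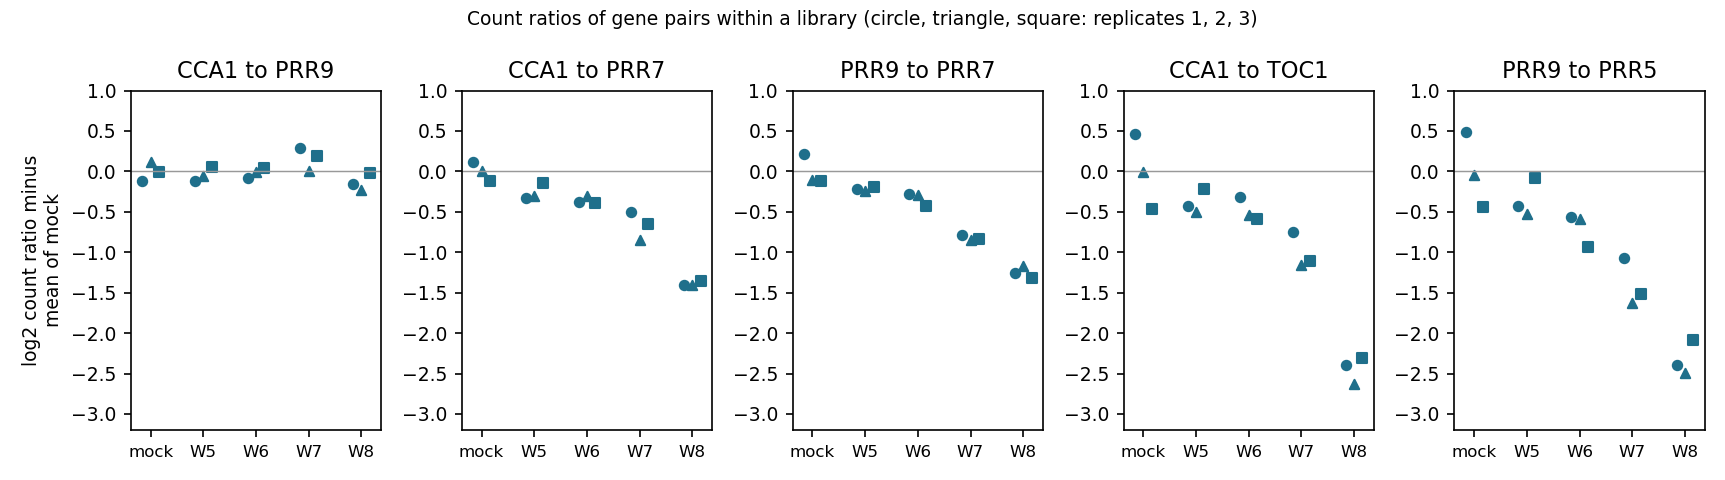
Log2 of the count ratio of 5 gene pairs in each library, minus the mean of the mock libraries (y axis), by group. Symbols are replicates 1 to 3. CCA1 to PRR9 overlaps between mock and W8, whereas the ratios to PRR7, TOC1 and PRR5 are lower in W8 than in any other group.

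The other clock genes give the context. Of 12 afternoon and evening clock genes tested, 4 were higher and 1 was lower in W7 against mock. Over all genes tested, 6.29% were called higher and 6.77% lower. In W8, 9 were higher and 1 was lower, against 18.5% higher and 17% lower over all genes. Without the 2 libraries that stood apart 8 were higher and 1 was lower, where 6482 of 19492 genes were called in either direction. BOA, among the 9, had 3 to 19 counts per library and 54.1% of its exon bases its own, so its counts are uncertain. The median log2 change of the 12 genes was 0.34 in W7 and 0.94 in W8. TOC1, the evening repressor whose promoter CCA1 and LHY bind, measured 19.8, 25 and 30.4 CPM in mock and 46.9, 52.6 and 47.9 in W8, without overlap. Its log2 change was 0.97 ± 0.13 in W8 (adjusted p = 4.17e-05), and 0.38 with adjusted p = 0.0744 in W7, where adjusted p ran from 0.00263 to 0.244 over the alternatives. PRR5, a pseudo-response regulator of the afternoon, measured 28.8, 32.8 and 41.1 CPM in mock and 71.6, 77.1 and 57.4 in W8, again without overlap. It rose by 1.00 ± 0.17 (adjusted p = 0.000789).

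PRR3, which stabilises the TOC1 protein, rose by 1.32 ± 0.14 in W8 (adjusted p = 1.37e-06). ELF3 and LUX encode members of the evening complex, a repressor of PRR9. ELF3 rose by 0.55 ± 0.072 (adjusted p = 9.90e-06) and LUX by 1.04 ± 0.11 (adjusted p = 7.03e-07), although only 82.2% of the LUX exon bases are its own. GI, which stabilises an F-box protein that degrades TOC1, rose by 0.24 ± 0.068 (adjusted p = 0.0091). The 1 gene of this list that was lower in W8 was CHE, a TCP factor that represses CCA1. CHE, named after its value was seen, fell by 0.34 ± 0.065 (adjusted p = 0.000499).

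The partners of the RVE proteins and the other REVEILLE genes were lower where they passed the test. Of 5 other REVEILLE genes tested, 2 were lower in W8, where 17% of all genes tested were called lower, and 0 in W7, where 6.77% were. RVE7 fell by 1.15 ± 0.11 (adjusted p = 3.50e-07) and ASG4, at only 9 to 39 counts per library, by 1.65 ± 0.41 (adjusted p = 0.00348). AT4G01280 at -0.25 (adjusted p = 0.0888), with 69.7% of its exon bases its own, and RVE2 at -1.30 ± 0.67 (adjusted p = 0.161) did not pass. RVE2 measured 7.49 CPM in mock replicate 3 and 0.614–1.77 CPM in the other 14 libraries, and without the 2 libraries that stood apart its change was 0.33 with adjusted p = 0.574. Of 8 co-regulators, 4 were lower and 1 was higher in W8, against 17% lower and 18.5% higher over all genes, and all 4 were LNK genes, whose proteins bind RVE8 and RVE4. LNK3 fell by 1.36 ± 0.1 (adjusted p = 1.73e-08), LNK4 by 0.87 ± 0.08 (adjusted p = 1.79e-07), LNK2 by 0.68 ± 0.13 (adjusted p = 0.000967) and LNK1 by 0.41 ± 0.062 (adjusted p = 4.78e-05). Only 90.8% of the LNK1 exon bases are its own.

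Of 13 output genes tested, 3 were higher and 4 lower in W8, against 18.5% higher and 17% lower over all genes. In W7 the counts were also 3 and 4, against 6.29% and 6.77%. The W8 shares of this list are not far from those of all genes. CDF3 and CDF1, morning-expressed DOF transcription factors, fell by 1.48 ± 0.079 (adjusted p = 1.96e-10) and by 1.33 ± 0.13 (adjusted p = 2.78e-07). CAT2, the catalase with a morning peak, fell by 1.1 ± 0.096 (adjusted p = 1.11e-07). CAT3, the catalase with an evening peak, rose by 0.77 ± 0.08 (adjusted p = 6.98e-07).

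**Figure D5:**
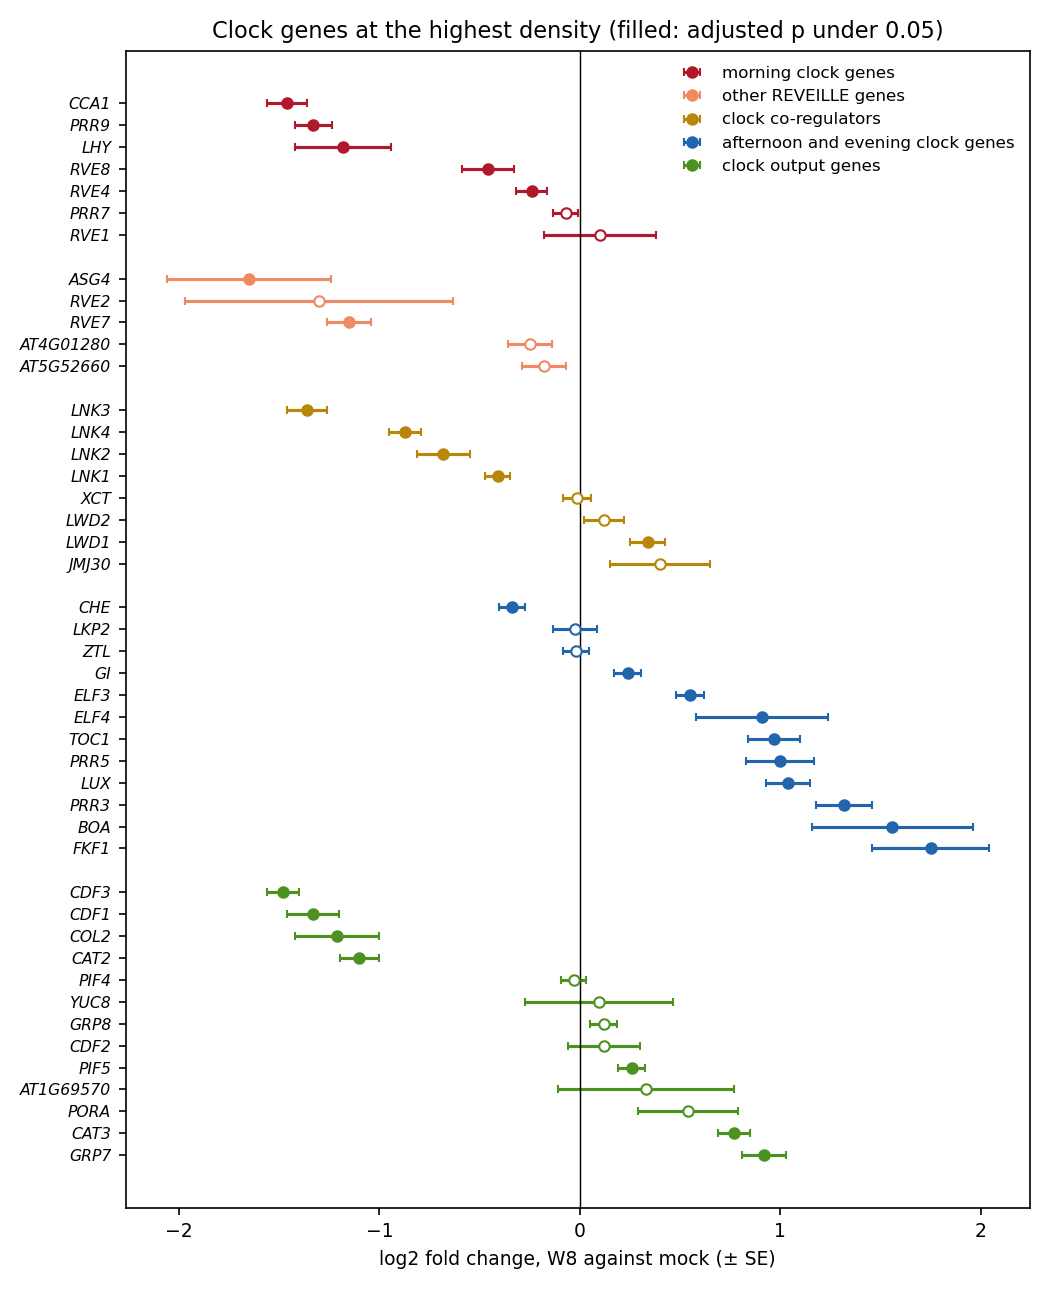
Log2 fold change in W8 against mock ± SE (x axis) for the 7 morning genes and 4 further clock lists (colours), with filled symbols where edgeR's adjusted p was under 0.05. The called morning, REVEILLE and LNK genes lie left of 0, and 9 of 12 afternoon and evening genes lie right of 0 and pass.

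Genes that feed light, sugar and phosphorylation signals into the clock, or that respond to sugar, were counted as well. Of 11 light input genes, 3 were higher and 4 lower in W8, against 18.5% higher and 17% lower over all genes. The blue-light receptor CRY2 rose by 0.60 ± 0.062 (adjusted p = 6.32e-07), PHYA, a far-red receptor, by 0.47 ± 0.089 (adjusted p = 0.000462) and CRY1 by 0.23 ± 0.057 (adjusted p = 0.00358). HYH, a bZIP factor close to HY5, fell by 1.34 ± 0.22 (adjusted p = 0.000113). Of 6 genes of sugar signalling and sugar response, 2 were higher and 1 lower, against the same shares over all genes. DIN10, a gene induced in darkness and sugar starvation, rose by 1.85 ± 0.12 (adjusted p = 1.61e-08) and BZIP63, a factor that binds the PRR7 promoter under low energy, by 0.36 ± 0.093 (adjusted p = 0.00463). TPS1, which makes trehalose 6-phosphate, fell by 0.37 ± 0.11 (adjusted p = 0.0156), with 90.1% of its exon bases its own. That call was lost when mock and W8 alone were fitted and without mock replicate 1, W8 replicate 2 or W8 replicate 3, with adjusted p from 0.000847 to 0.08. The sugar-repressed ASN1 was at 0.37 ± 0.46 (adjusted p = 0.577), with 18 to 65.3 CPM in mock. Without the 2 libraries that stood apart it was called higher, at 1.34 with adjusted p = 0.0151, and adjusted p ran from 0.00847 to 0.931 over the alternatives. Of 7 casein kinase 2 genes, whose product phosphorylates CCA1, 2 were higher and 0 lower, against 35.5% of all genes called in either direction. These were CKA1 at 0.27 ± 0.068 (adjusted p = 0.00401), with 83.9% of its exon bases its own, and CKA2 at 0.18 ± 0.065 (adjusted p = 0.0386). The CKA2 call was lost in 11 alternatives, with adjusted p from 0.00787 to 0.201, and without the 2 libraries that stood apart 1 gene of this list was higher. CKA3 at -0.21 (adjusted p = 0.0639), with 93.7% of its exon bases its own, and CKB3 (adjusted p = 0.0714) did not pass. Of the 30 genes of the other lists named by rule, 28 were on the same side of the threshold in W8 without the 2 libraries that stood apart, the exceptions being ASN1 and CKA2.

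For each of the 5 genes that differed among the groups, the genes with the nearest pattern were looked up. Likeness was the root mean square distance between log2 CPM centred on each gene's mean over the 15 libraries, among 16641 genes, and these distances carry no test. CCA1, whose own values spread by 0.52 about their mean, was nearest to CDF3 at 0.081, to the bHLH gene UNE10 at 0.096 and to AT1G64500 at 0.12. PRR9, with a spread of 0.48, was nearest to CDF3 at 0.097, CDF1 at 0.12 and AT1G66540 at 0.12. CDF3 thus headed both lists. It measured 119, 109 and 98 CPM in mock, 100, 93.5 and 102 in W5 and 75.3, 86.8 and 81.2 in W6. It measured 72.7, 65.6 and 62.3 in W7 and 40.8, 37.4 and 38.5 in W8. In W6 CDF3 was already lower than mock, by -0.42 on the log2 scale with adjusted p = 0.00431.

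The patterns of the other 3 were followed less closely in relation to their spread. LHY, with a spread of 0.46, had AT3G19970 and MTM1 at 0.24 and AT5G14700 at 0.26. RVE8, with a spread of 0.20, had EMB175 at 0.093, AT3G48800 at 0.095 and AT3G27050 at 0.099. RVE4, with a spread of 0.13, had the tubulin gene TUB6 at 0.051, AT3G51150 at 0.060 and AT3G19515 at 0.062.

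Replicate spread differed between the genes. The coefficient of variation within a group was 6.48% to 12.4% for CCA1 and 0.963% to 16.2% for PRR9, while it reached 34.8% for LHY in mock and 39.3% for RVE1 in W8. Counting error alone gives 8.34% for LHY in mock and 2.66% for CCA1, and both values lie below the spread seen in mock, which was 10.7% for CCA1. In some groups the spread seen was smaller than counting error, as for PRR9 in W8 (0.963% against 5.03%) and RVE8 in mock (4.15% against 7.04%). The labels name the libraries of a group as biological replicates, and the p-values measure the spread between these pools of plants.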

How the data were processed

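Poly-A RNA of the aboveground parts of 15 plant pools was sequenced, and the authors deposited raw counts per gene for each library. The submitters' processing notes name cutadapt 1.9.1, featureCounts 1.22.2 and the TAIR10 genome. Which aligner, gene models and strandedness were used is not given in the sources used here, so reads of overlapping or antisense genes could not be told apart. A gene is called uncertain where under 95% of its exon bases in the RefSeq TAIR10.1 annotation are its own. That annotation was joined to the counts by locus tag alone (32548 of 32833 identifiers matched), and it gave the names, exon lengths, gene positions and upstream sequences.

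The counts were filtered with filterByExpr (minimum count 10, minimum total 15), scaled by TMM and fitted with edgeR 4.0.16 in R 4.3.3 as quasi-likelihood models with 1 mean per group over all 15 libraries. A change was called at an adjusted p (Benjamini-Hochberg over all genes tested) under 0.05. CPM values use the TMM library sizes, log2 CPM a prior count of 2, and intervals the t distribution at a level of 95%. The slope used the 12 inoculated libraries and 19285 genes. The fits were tested on simulated data. No pair of libraries agreed within counting noise.

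The 7 genes, the further gene lists and the alternatives were chosen with earlier results of these data known. The further genes named were, in each list, up to 4 with the smallest p in the test for any difference, plus TOC1, PRR5 and GI. The 3 nearest patterns were taken among genes whose average log2 CPM was 1 or more. Alternatives were DESeq2 1.42.0, limma 3.58.1 (voom), upper-quartile scaling, no filter, no robust moderation, only the 2 groups compared, a replicate block, and leaving out libraries.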

Additional observations from a re-analysis of the deposited data

How the results depend on the processing

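Over up to 23 alternatives for each comparison, giving 1596 values of the 7 genes, no called value changed its sign, 75 calls were lost and 23 were gained. CCA1 and PRR9 against mock were called in W7 and W8 in all 23 alternatives, and LHY and RVE8 in W8 in all 23. Leaving out 1 library at a time gave 0 to 2 called genes in W6 against mock (0 with all libraries), 2 to 4 in W7 against mock (4), 4 to 5 in W8 against mock (5), 0 to 1 between W6 and W7 (1), 2 to 3 between W7 and W8 (3), 2 to 4 between W5 and W8 (3), 3 to 5 for any difference (5) and 2 to 4 for the slope (3). The count of 2 in W7 was that without W7 replicate 2, where 1164 of all genes tested were called, against 2534 with all libraries. DESeq2 called 3 in W6 against mock, and 333 of all genes tested against 249 by edgeR. Only the 2 groups compared gave 2 in W7 against mock, with 1756 of all genes tested called. Upper-quartile scaling gave 5 between W5 and W8, with 6872 of all genes tested called against 6475 with TMM. Without mock replicate 3 and W8 replicate 2, 2 were called in W6 against mock and 3 for any difference. Of all genes tested, 577 and 6128 were called there, against 249 and 6380 with all libraries. The cause of these shifts was not tested.

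Libraries with the same replicate number were not clearly more alike than others. Deviations from the group means correlated between -0.305 and 0.32 over the 30 pairs with the same number, with 6 above 0.1. Over the 60 pairs with different numbers they ran from -0.412 to 0.46, with 11 above 0.1. Such correlations cannot show that no pairing existed. With the replicate block, 4 genes were called in W7 and 5 in W8 against mock, 2 between W5 and W8 and 4 for any difference. Over all genes tested, 2650, 6893, 6506 and 6372 were called there, in the same order. LHY and RVE1 had the fewest counts, so their changes were the least precise. RVE1 was newly called, as higher, in 5 alternatives of the slope and 3 of W5 to W8. PRR7 was newly called, as lower, between W5 and W8 by edgeR with upper-quartile scaling alone (adjusted p = 0.0239).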
